A study of Caenorhabditis elegans with 6 samples.

Results

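The class I targets of DAF-16 described here are 10 genes that the transcription factor DAF-16 is known to activate and that have been linked to long life in Caenorhabditis elegans: sod-3, mtl-1, mtl-2, ftn-1, hsp-12.6, icl-1, lea-1, scl-1, C08E8.4 and K07B1.4. They were taken by name, as every probe set whose single gene symbol or sequence name is one of these, which gave 21 probe sets for all 10 genes out of 22548 probe sets for 17118 named genes. Their transcripts were measured on Affymetrix arrays in whole worms of mixed stages, with 3 arrays for N2, the wild-type strain, and 3 for an outcrossed strain that carries the loss-of-function allele tdp-1(ok803). Both groups were grown under standard conditions, and the labels name no other allele or treatment. TDP-1 is the worm counterpart of TDP-43, an RNA-binding protein, and the comparison asked how transcript levels differ when it is lost. The design text calls the samples biological replicates. Worms of all ages were harvested together, and in such whole-animal RNA a smaller share of the cells that express a gene and less RNA per cell cannot be told apart.

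DAF-16 is the worm's FOXO factor. The insulin receptor DAF-2 signals through the kinases AGE-1, PDK-1, AKT-1 and AKT-2 to keep it out of the nucleus, and when that signal is low it enters the nucleus and activates genes of stress defence, metal handling and fat use. Class I is the usual name for the genes it turns on and class II for those that are lower when it is active. Class I genes such as sod-3 and mtl-1 are widely used as readouts of DAF-16 activity, much of it in the intestine.

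None of the 10 genes passed the test between genotypes. In limma with adjustment over all 22548 probe sets, 0 of 21 probe sets reached an adjusted p under 0.05, where 13 of all probe sets did (0.0577%), and the smallest adjusted p among them was 0.255, for a probe set of mtl-2. At an unadjusted p under 0.05 there were 11 of 21, against 6.97% of all probe sets. With each gene read by its brightest probe set there were 5 of 10, against 1240 of all 17118 genes. On that reading 7 of the 10 genes were lower and 3 higher in the mutant, with a median difference of -0.32 on the log2 scale, while 47.0% of all 17118 genes were lower and their median was 0.013. Groups did not overlap for 5 genes, namely sod-3, mtl-2, ftn-1 and icl-1 with the mutant lower and hsp-12.6 with the mutant higher. Of all 17118 genes on the same reading, 804 lay apart with the mutant lower and 1269 with the mutant higher. Over all probe sets 11.6% lay apart, 4.84% with the mutant lower and 6.80% with the mutant higher. Probe sets of 1 gene share their transcript and are not separate evidence. The members were chosen with earlier results of these arrays known, so the shares describe the arrays and test nothing.

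Transcript of tdp-1 was low on every array labelled as mutant. Its brighter probe set read 8.86, 9.22 and 8.85 in wild type and 4.77, 4.78 and 5.47 in the mutant. Its position against the deletion was not analysed here. Array medians lay between 5.41 and 5.52. Of the gene lists used as markers, all 11 intestinal, all 14 germline and 8 of 10 measured sperm genes had mean values above the median of all probe sets, as did 3 of 11 embryonic genes. Values are on the log2 scale throughout, as are differences, which are mutant minus wild type. Whether a value lay above background was not assessed, and with 3 arrays per genotype the precision is low.

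**Figure D1:**
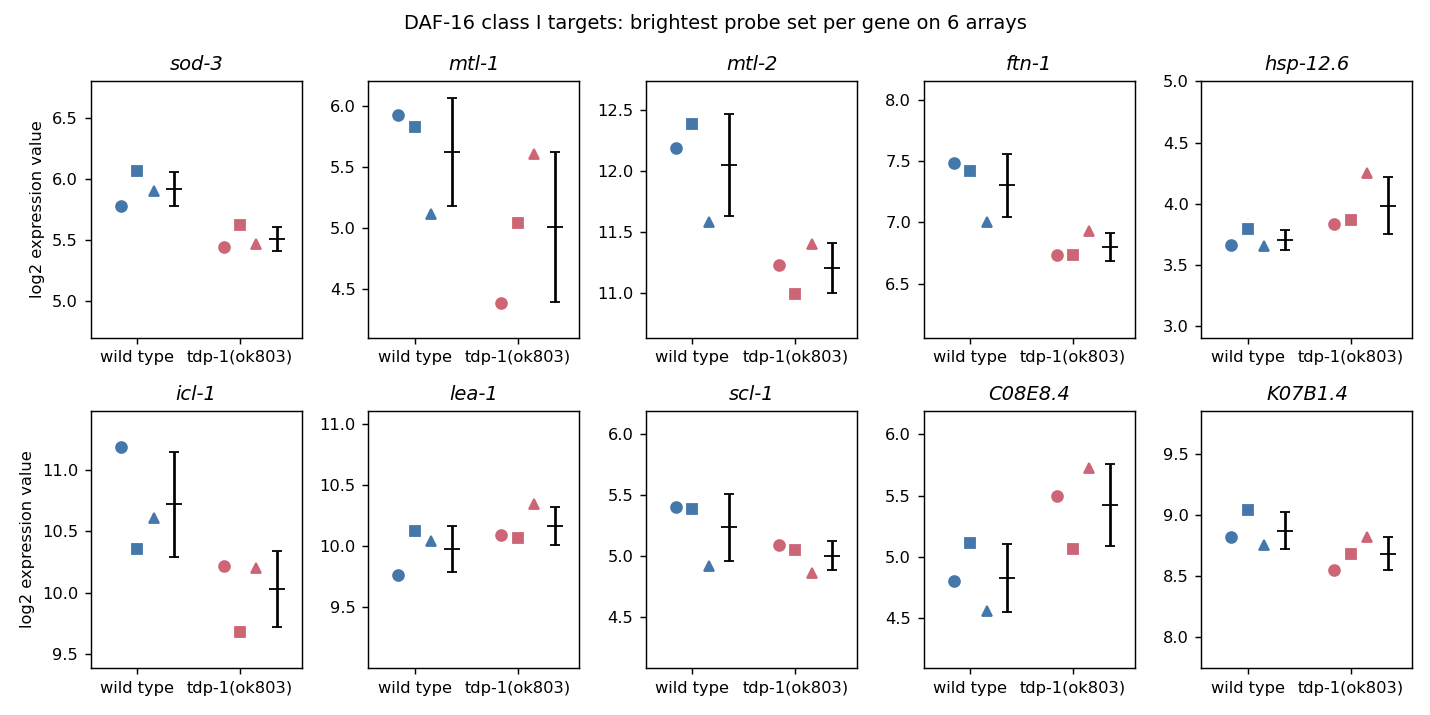
Log2 expression value (vertical axis, the same span in each panel) of the brightest probe set of each of the 10 genes, for wild type (blue) and tdp-1(ok803) (red). Circles, squares and triangles are replicates 1, 2 and 3, and the black bar is the mean ± SD of 3 arrays. The groups lie apart for sod-3, mtl-2, ftn-1, icl-1 and hsp-12.6.

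The metallothionein genes mtl-1 and mtl-2 encode small cysteine-rich proteins that bind metal ions. The brightest mtl-2 probe set read 12.19, 12.38 and 11.58 on wild-type arrays 1 to 3 and 11.23, 10.99 and 11.40 on the mutant arrays. Every mutant array was lower than every wild-type array, with a gap of 0.18 between wild-type array 3 and mutant array 3. The means were 12.05 ± 0.42 and 11.21 ± 0.21 (SD, n = 3), and the difference was -0.84 ± 0.22 (SE; unadjusted 95% interval -1.35 to -0.34), with a limma adjusted p of 0.409. The other mtl-2 probe sets differed by -1.01 and -0.70, also without overlap between the groups (limma adjusted p = 0.255 and 0.522). In Affymetrix names the endings s and x mark probe sets whose probes also match other transcripts, and 10 of the 21 probe sets carry one, among them all 3 of mtl-2, all 3 of icl-1 and that of ftn-1, so their readings are uncertain where a close copy is expressed.

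mtl-1 is read by 1 probe set without such an ending. It read 5.92, 5.83 and 5.11 in wild type and 4.39, 5.04 and 5.61 in the mutant. The groups overlapped, since mutant array 3 lay above wild-type array 3. The difference was -0.61 ± 0.33 (SE; 95% interval -1.37 to 0.15, limma adjusted p = 0.8), and a drop or a small rise both fall inside that interval. With single arrays left out it ran from -0.91 without mutant replicate 3 to -0.30 without mutant replicate 1, and its range over the 6 arrays, 1.54, was wider than that of 97.4% of probe sets.

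The superoxide dismutase gene sod-3, which encodes a mitochondrial manganese enzyme and is a standard reporter of DAF-16, read 5.78, 6.06 and 5.91 in wild type and 5.44, 5.62 and 5.46 in the mutant. The mutant arrays were all lower, with a gap of 0.16 between the groups. The means were 5.92 ± 0.14 and 5.51 ± 0.10 (SD, n = 3), with a difference of -0.41 ± 0.12 (SE; 95% interval -0.70 to -0.12, limma adjusted p = 0.532). Other dismutase genes had small differences with overlapping groups. The mitochondrial sod-2 differed by -0.25, the cytosolic sod-1 by -0.10, sod-4 by 0.27 and sod-5 by 0.095, with limma adjusted p between 0.881 and 0.962. The catalase gene ctl-2 differed by -0.08.

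The ferritin heavy chain gene ftn-1, for iron storage, read 7.48, 7.42 and 7.003 in wild type and 6.73, 6.73 and 6.93 in the mutant. The groups lay apart, with wild-type array 3 and mutant array 3 0.070 from each other. The difference was -0.50 ± 0.16 (SE; 95% interval -0.87 to -0.14, limma adjusted p = 0.537), from 7.30 ± 0.26 to 6.80 ± 0.12 (SD, n = 3). Its relative ftn-2 read higher, at 12.08, 10.92 and 11.73 in wild type and 11.72, 12.06 and 11.18 in the mutant. The ftn-2 groups overlapped, with a difference of 0.075 (limma adjusted p = 0.981). Whether the ftn-1 probe set, with its ending s, also reads ftn-2 was not tested.

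The gene icl-1 encodes the glyoxylate cycle enzyme, isocitrate lyase joined to malate synthase, by which worms can make sugar from fat. Its brightest probe set read 11.19, 10.36 and 10.61 in wild type and 10.22, 9.67 and 10.20 in the mutant. The other probe sets read 10.61, 10.53 and 10.68 against 10.21, 9.07 and 9.69, and 10.43, 9.45 and 10.34 against 9.37, 9.02 and 8.83. In each of the 3 the mutant arrays lay below every wild-type array, while the order of arrays within a genotype differed between probe sets. The differences were -0.69 ± 0.24, -0.95 ± 0.26 and -0.996 ± 0.27 (SE), with limma adjusted p of 0.606, 0.421 and 0.421. The last of them was the 1 member probe set that passed when an array was left out, at an adjusted p of 0.0401 without wild-type replicate 2 (limma). The gluconeogenic gene pck-1 differed by -0.46 with groups apart, mdh-1 by -0.46 with groups that overlap and mdh-2 by 0.33 with groups apart, with limma adjusted p of 0.713, 0.764 and 0.635.

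The small heat shock gene hsp-12.6, of the alpha-crystallin family, was higher in the mutant. It read 3.66, 3.79 and 3.66 in wild type and 3.83, 3.87 and 4.25 in the mutant. Every mutant array was higher, with a gap of 0.037 between the groups, and the mean over arrays lay at the 11.1 percentile of probe sets. The difference was 0.28 ± 0.14 (SE; 95% interval -0.06 to 0.61, limma adjusted p = 0.788), and 0.15 without mutant replicate 3. Its relatives hsp-12.1, hsp-12.2 and hsp-12.3 differed by 0.099, -0.28 and 0.037, with groups that overlap.

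For the secreted SCP-domain gene scl-1, values were 5.405, 5.38 and 4.92 in wild type and 5.09, 5.05 and 4.87 in the mutant. The groups overlapped at wild-type array 3. The difference was -0.23 ± 0.16 (SE; 95% interval -0.61 to 0.14, limma adjusted p = 0.857). Among relatives scl-2 was higher by 0.49 with groups apart and scl-3 lower by 0.44 with groups that overlap (limma adjusted p = 0.706 and 0.743).

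The 2 genes known by sequence name differed in opposite directions. C08E8.4 read 4.80, 5.11 and 4.56 in wild type and 5.49, 5.06 and 5.72 in the mutant, and mutant array 2 lay below wild-type array 2. Its difference was 0.60 ± 0.21 (SE; 95% interval 0.12 to 1.08, limma adjusted p = 0.597). The second, dimmer probe set read 3.44, 3.51 and 3.36 against 3.64, 3.76 and 3.67, a difference of 0.26 ± 0.11 without overlap (limma adjusted p = 0.72). K07B1.4 read 8.81, 9.04 and 8.75 against 8.55, 8.68 and 8.82, with overlap. It differed by -0.19 ± 0.13, and by -0.32 ± 0.20 in its second probe set (limma adjusted p = 0.864 and 0.832).

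**Figure D2:**
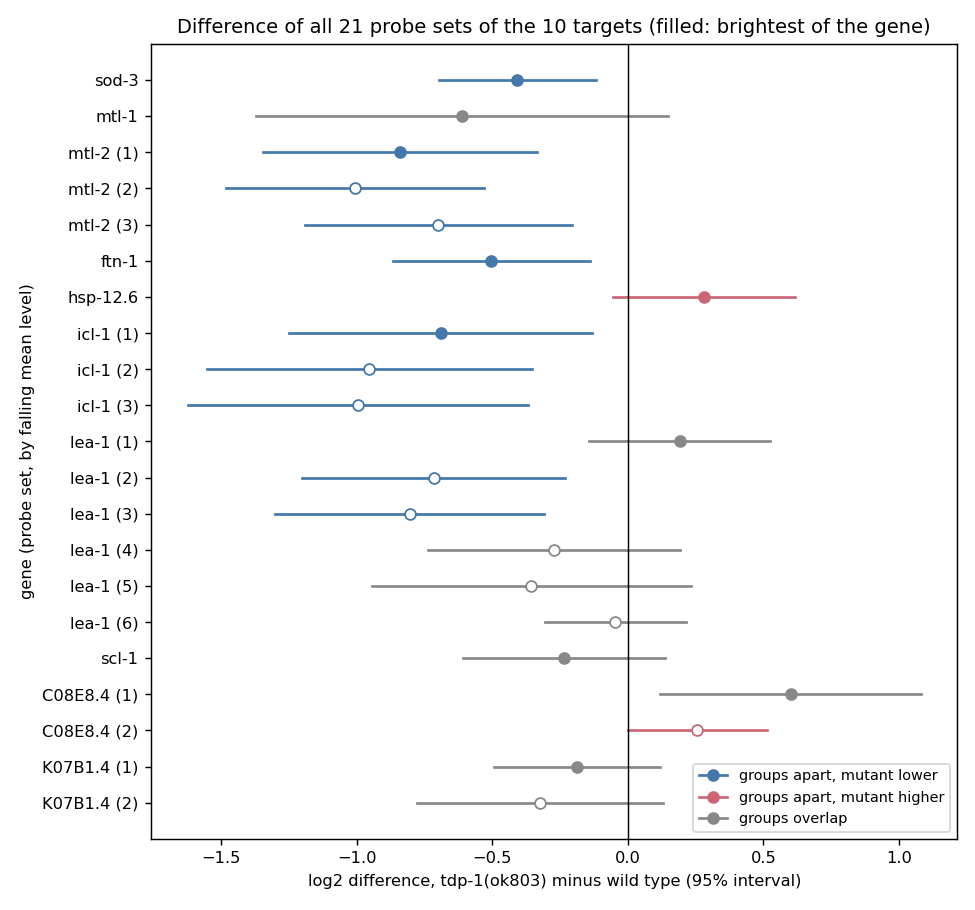
Log2 difference, tdp-1(ok803) minus wild type, of all 21 probe sets (horizontal axis, point with unadjusted 95% interval from limma), grouped by gene. Filled points are the brightest probe set of a gene, and colour shows whether the 3 mutant arrays lie wholly below (blue), wholly above (red) or among (grey) the wild-type arrays. All 3 probe sets of mtl-2 and of icl-1 are blue, and those of lea-1 fall on both sides of 0.

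The direction of lea-1 depended on the probe set. The gene encodes a protein of the late embryogenesis abundant family, known for protection in drying, and the annotation lists many transcripts for it. Its brightest probe set read 9.76, 10.12 and 10.05 in wild type and 10.09, 10.07 and 10.35 in the mutant, a difference of 0.19 ± 0.14 with overlap (SE; limma adjusted p = 0.867). The next brightest, with a mean over arrays at the 93.8 percentile against 93.9 for the first, read 10.50, 10.76 and 9.99 against 9.48, 9.74 and 9.87. It was lower in the mutant by 0.72 ± 0.21 with groups apart (adjusted p = 0.5). Another read 9.20, 8.69 and 8.59 against 7.91, 8.38 and 7.78 and was lower by 0.80 ± 0.21, also apart (adjusted p = 0.421). The remaining 3 differed by -0.27, -0.36 and -0.05, all with overlap, the last with values from 3.71 to 3.89. With all 6 probe sets averaged on each array the difference was -0.33 (limma adjusted p = 0.585), so the direction counted for lea-1 depends on the probe set.

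**Figure D3:**
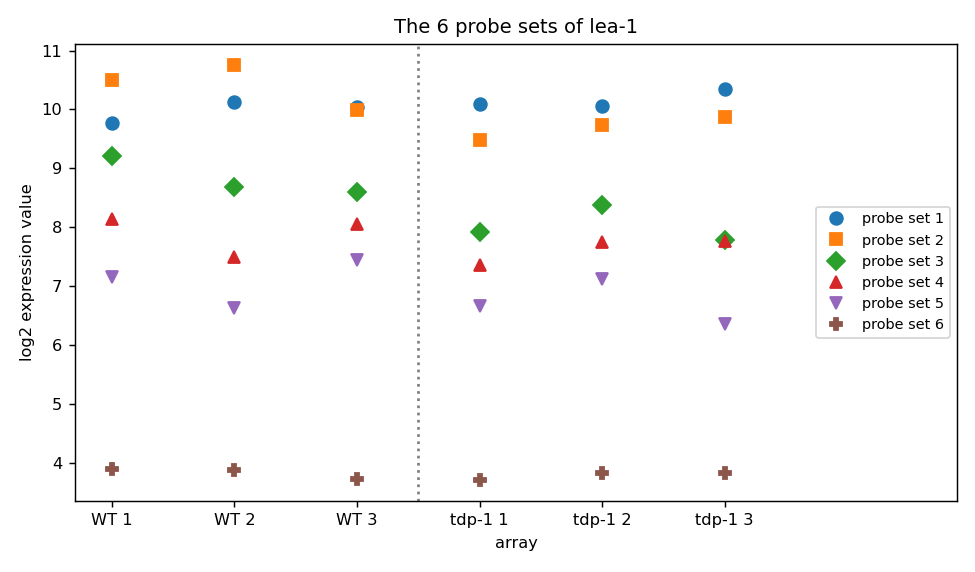
Log2 expression value of the 6 lea-1 probe sets (vertical axis) on each of the 6 arrays (horizontal axis, wild type left of the dotted line). Probe set 1 overlaps between genotypes, sets 2 and 3 lie lower on all 3 mutant arrays, and set 6 stays between 3.71 and 3.89.

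Wild-type arrays 1 and 2 carried the highest values of several targets. In mtl-1, mtl-2, ftn-1 and scl-1, 4 of the 10 targets, these arrays were the 2 highest of 6. The same holds for 12 of 38 measured other genes that DAF-16 activates and for 6.17% of all genes. It also holds for 6 of 47 measured family partners of the targets, some of them among the 38. Of 12 measured genes that DAF-16 keeps low, it holds for 1. The 12 of 38 include hsp-16.2, hsp-16.41 and hsp-70. They also include the relatives hsp-12.3 and sip-1, by only 0.080 and 0.041 above the next array. In contrast, hsp-12.1 and hsp-17 were highest on mutant array 1, hsp-12.2 and hsp-25 on wild-type array 3 and hsp-12.6 on mutant array 3. The small heat shock gene hsp-16.2 read 9.33 and 10.50 on wild-type arrays 1 and 2, 5.60 on wild-type array 3 and 7.07, 5.12 and 5.77 in the mutant. For hsp-16.41 the values were 8.68 and 9.86, then 4.78, then 6.49, 3.81 and 3.81. The chaperone gene hsp-70 read 7.19 and 9.17, then 5.64, then 6.26, 4.92 and 5.28. The pairing of arrays 1 and 2 was chosen after these values were seen, and the part of heat shock in the targets' differences was not tested. When both arrays were left out, which leaves 1 wild-type array assumed to vary like the mutant ones, mtl-1 differed by -0.10, mtl-2 by -0.37, ftn-1 by -0.20 and scl-1 by 0.081. In the same setting sod-3 differed by -0.40 and icl-1 by -0.58, and the median of the 10 genes was -0.087.

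**Figure D4:**
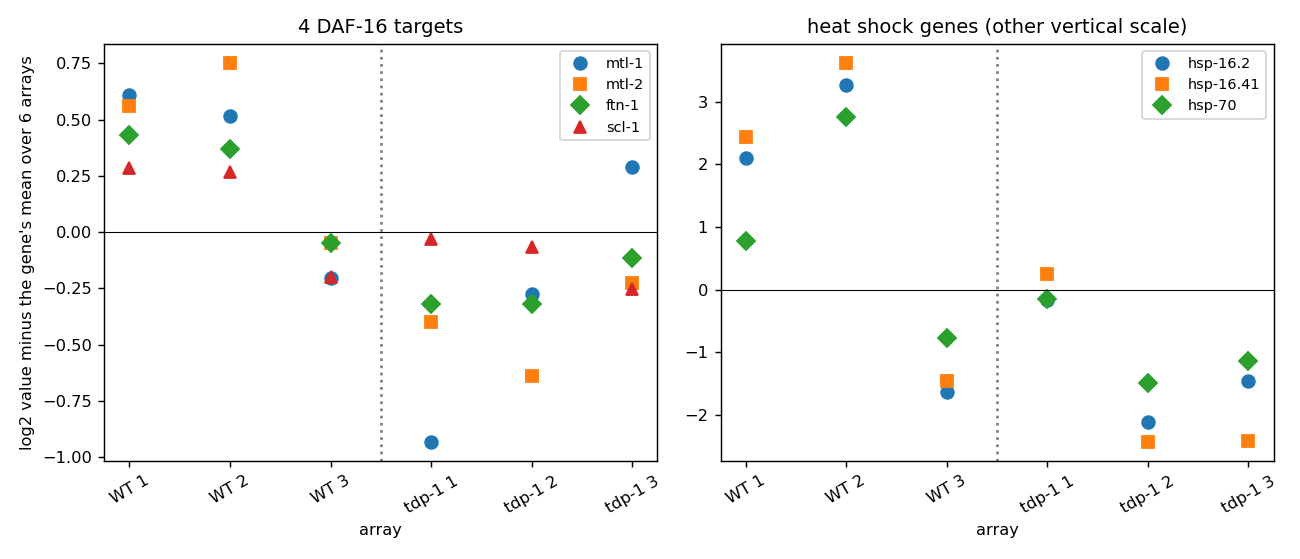
Log2 value minus the mean of the gene over 6 arrays (vertical axis, different span in the 2 panels) on each array (horizontal axis), for mtl-1, mtl-2, ftn-1 and scl-1 on the left and the heat shock genes hsp-16.2, hsp-16.41 and hsp-70 on the right. All 7 genes are highest on wild-type arrays 1 and 2.

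The gap between the 3' and 5' probe sets of the actin and Gapdh controls, which follows RNA integrity and labelling, was 2.52 to 3.09 on wild-type arrays 1 and 3 and mutant array 2 and 4.01 to 4.31 on the rest. Within the first 3 arrays mtl-2 differed by -0.89 and within the others by -1.06, with 1 array on one side of each comparison and no test. ftn-1 differed by -0.51 and -0.59 and sod-3 by -0.22 and -0.61. icl-1 differed by -1.23 and -0.15, so its size was not alike in both sets. With the gap as a covariate in limma, 2 of the 3 mtl-2 probe sets passed, at -1.25 and -0.98 (adjusted p = 0.0316 and 0.0256), while the brightest, at -1.08, did not (0.095). In that fit 25 probe sets passed in all. By brightest probe set, the targets higher in the mutant moved nearer to 0 in it, C08E8.4 to 0.34, hsp-12.6 to 0.18 and lea-1 to 0.089. The lower targets moved further from 0, except icl-1 at -0.66.

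In the list for the insulin to DAF-16 core, 1 ligand gene passed the test. That list holds signalling genes, daf-16 itself and other factors such as skn-1. Of its 29 measured genes, 1 rose and 0 fell, where 0.0577% of all probe sets passed in either direction. The median was 0.032, with 18 higher. The gene that rose was ins-7, an insulin-like peptide known to act through DAF-2 and to be kept low by DAF-16, at 4.79, 4.91 and 4.60 in wild type and 7.19, 6.61 and 6.96 in the mutant (difference 2.16 ± 0.17, limma adjusted p = 0.00822). Transcript of daf-16 itself read 8.79, 8.92 and 8.64 against 8.76, 8.84 and 9.26, overlapping, with a difference of 0.17 ± 0.16 in its brightest probe set (limma adjusted p = 0.894). The receptor gene daf-2 differed by 0.032 and akt-1 by 0.015, with overlap, and akt-2 by -0.29 with groups apart (limma adjusted p = 0.767). Of the 29 genes, 4 lay apart with the mutant higher, against 6.80% of all probe sets. With the mutant lower 2 lay apart, against 4.84%. The stress factor gene skn-1 was higher by 0.47 with groups apart (limma adjusted p = 0.558). Transcript levels say nothing about where DAF-16 protein is in the cell.

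Other genes known to be activated by DAF-16 had a median nearer to 0. Of 45 listed, 38 were measured, and 0 passed in either direction. The median was -0.08 with 24 lower and 14 higher. Groups lay apart for 1 gene in each direction, where 11.6% of all probe sets lay apart in either. These were lys-8, higher by 0.47, and pck-1, lower by 0.46 (limma adjusted p = 0.571 and 0.713). The widest differences, hsp-16.41 at -3.07 ± 1.27, hsp-16.2 at -2.49 ± 1.14 and hsp-70 at -1.85 ± 0.79 (SE), came with the array values given above. Genes that DAF-16 keeps low were mostly higher in the mutant. Of 12 measured from 14 listed, 1 rose, again ins-7. A total of 9 were higher, against 53.0% of all genes, with a median of 0.18. The other 3 were lower, fat-3 at -0.19, dod-24 at -0.18 and dod-17 at -0.06, all with overlap. The groups lay apart for 4, all with the mutant higher, against 6.80% of all probe sets. These were ins-7, dod-19 at 0.92, dod-23 at 0.78 and dod-22 at 0.59, the last 3 with limma adjusted p of 0.255, 0.394 and 0.736. These lists were written with earlier results of the same arrays known.

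**Figure D5:**
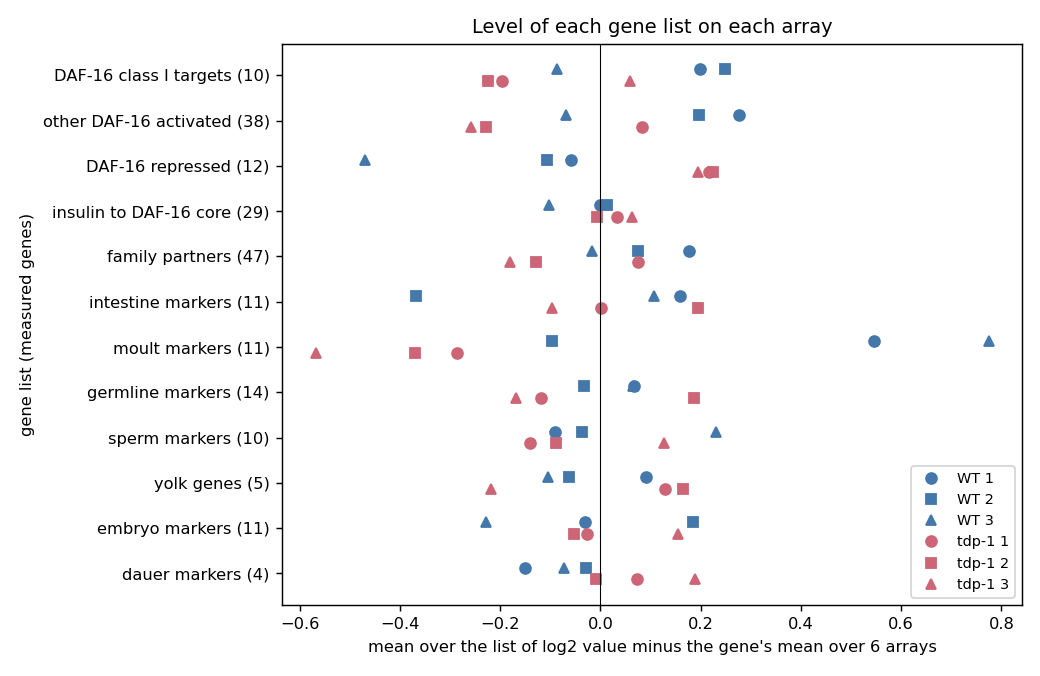
Mean over each gene list of the log2 value minus the mean of the gene over 6 arrays (horizontal axis), for each array, with wild type in blue and tdp-1(ok803) in red. Circles, squares and triangles are replicates 1, 2 and 3, and the number of measured genes stands in brackets. The targets overlap between genotypes, with wild-type array 3 below mutant array 3, and moult markers lie wholly lower in the mutant.

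The mean over the 10 targets was 0.20, 0.25 and -0.09 on the wild-type arrays and -0.20, -0.22 and 0.059 on the mutant arrays, so the genotypes overlapped. Markers of moulting lay apart between genotypes. All 11 measured were lower in the mutant, 8 with groups apart and 0 passing, where 4.84% of all probe sets lay apart with the mutant lower. Their list mean was -0.10 to 0.77 in wild type against -0.57 to -0.29 in the mutant. Their differences ran from -1.56 to -0.27. With the 3' minus 5' gap as a covariate all 11 were nearer to 0, from -1.29 to -0.04. Intestinal markers, the tissue where many of the targets are active, overlapped, from -0.37 to 0.16 against -0.10 to 0.19, and so did germline, sperm, yolk and embryonic markers. The 4 dauer markers were higher in the mutant by 0.17 on average, with list means apart and 0 passing. Only ddo-1, at 0.38, had groups apart, and the other 3 differed by 0.05 to 0.13 with overlap. With the 3' minus 5' gap as a covariate cut-1 turned to -0.03. The part of stage make-up in the targets' values was not tested.

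Across the 6 arrays the 3 targets with the widest range were mtl-1, icl-1 and mtl-2. By root mean square difference of mean-centred values over 6 arrays, the genes most like icl-1 were the innexin gene inx-1, at 0.10, and the amino acid transporter gene aat-5, also at 0.10, then F37A8.5 at 0.14. Nearest to mtl-2 were the tubulin gene tba-8 at 0.17, lact-4 at 0.18 and lips-14 at 0.19. For mtl-1 the nearest were F14D2.19 at 0.21, meic-1 at 0.24 and F13B6.3 at 0.25. These are the closest of 17108 genes over only 6 points, a description of the arrays.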

How the data were processed

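Total RNA of whole worms was extracted with TRIzol, cleaned on RNeasy columns and biotin-labelled for the Affymetrix C. elegans array, per the labels' protocols. The deposited table holds 1 log2 value per probe set and array. The submitters' processing notes name RMA and Partek, without versions or settings, and the log2 scale was read from the values. Control probe sets (77) were left out. Symbols came from the platform annotation (20766 probe sets with 1 symbol, 887 with several and 895 with none, of which only the first were named), updated by gene ID in a WBcel235 gene table (65 found no match). The brightest probe set over all arrays stood for a gene.

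Samples were grouped by genotype label. Differences come from limma 3.58.1 in R 4.3.3 (lmFit, eBayes, genotype only), two-sided, Benjamini-Hochberg adjusted over 22548 probe sets, threshold 0.05. The test was checked on simulated data, where only differences larger than those of the members had to be recovered. An exact permutation test of 3 arrays against 3 cannot go below 0.1. Members and lists were chosen with earlier results of these data known. Named genes are the members, tdp-1 and at most 4 per list by smallest p. The rule also names the dismutase, ferritin, catalase, hsp-12 and hsp-16 partners and the 3 genes nearest to the 3 widest members. The genes daf-16, daf-2, akt-1, akt-2, mdh-1, scl-3, sip-1, hsp-17 and hsp-25 fall outside that rule and were added for their role or family. Also outside it are fat-3, dod-24 and dod-17, added as the lower genes of their list. Alternatives were other moderation, normalization, a filter at the 30th percentile, a replicate block, array weights, a 3' minus 5' covariate, averaged probe sets, a threshold of 0.1 and leaving out arrays. No batch is named in the labels, and numbers were not taken as pairs. Deviations of same-numbered arrays from their group means had correlations of 0.05, -0.61 and -0.46. With 3 arrays per group these cannot show whether same-numbered arrays were prepared together. Figures used matplotlib 3.10.9.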

Additional observations from a re-analysis of the deposited data

How the results depend on the processing

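The count of members called stayed at 0 in 15 of 16 alternatives (of 9 members under the filter, which left out hsp-12.6, and of 10 otherwise), and the directions of sod-3, mtl-1, mtl-2, ftn-1, icl-1, K07B1.4, hsp-12.6 and C08E8.4 were kept in all of theirs. The exception was array weights, which called 9 members, 19 member probe sets and 6291 of all probe sets. That fit put 90.8% of the wild-type weight on array 1 and 81.6% of the mutant weight on array 1, so in effect it compares 2 arrays. With the 3' minus 5' covariate 2 member probe sets and 25 of all were called. Leaving out 1 array gave 4 to 97 calls over all probe sets and 0 to 1 member probe sets, with a member median between -0.40 and -0.25. The count over all probe sets was 0 in an unmoderated model (1571 at an unadjusted p under 0.05 in the moderated one), 7 with equal array medians and 5 with the replicate number as a block, which called 0 members. With wild-type replicate 3 alone against the mutant, added after seeing the data, the member median was -0.087 and scl-1 turned to 0.081. Averaging its probe sets turned lea-1 to -0.33. The cause of the other changes was not tested. Unknown signal over background limits hsp-12.6 and the dimmer C08E8.4 and lea-1 probe sets.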
